A study of Mus musculus with 24 samples.

Results

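The B-cell receptor (BCR) signalling genes examined here were Cd79a, Cd79b, Lyn, Syk, Blnk, Plcg2, Cr2, Cd22 and Fcgr2b, and the measurement was chromatin accessibility by ATAC-seq in splenic germinal center (GC) B cells. Each gene was represented by the consensus peaks that overlapped its gene body or the 20 kb on either side, which gave 115 of the 65483 peaks of the data set. Lyn held 31 of them, Plcg2 21, Syk 16, Blnk 14, Cd79b 9, Cd22 8, Fcgr2b 8, Cd79a 5 and Cr2 3, and no peak belonged to more than 1 of these genes. Of these peaks, 10 overlapped the start of a coding transcript of their gene, 50 lay in introns, 16 touched other exons, 19 lay upstream and 20 downstream. The mice were 4 WT (Cg1Cre+/-), 4 C (Cg1Cre+/-, Crebbp fl/+), 4 K (Cg1Cre+/-, Kmt2d fl/+) and 5 CK (Cg1Cre+/-, Crebbp fl/+, Kmt2d fl/+). All of them, controls included, carried the Cre, which is driven by the Cg1 locus and so deletes floxed alleles in B cells that have been activated. The study describes them as female, 8 weeks old and of C57BL/6J background. They were immunized with sheep red blood cells (SRBC), and GC B cells were sorted at day 10 after enrichment on peanut agglutinin beads, with 1 library per mouse.

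The BCR is a membrane immunoglobulin that signals through CD79A and CD79B, whose cytoplasmic tails are phosphorylated by LYN and then bind SYK. SYK phosphorylates the adaptor BLNK, which brings in PLCG2 to raise intracellular calcium. The complement receptor encoded by Cr2 lowers the threshold of this cascade as part of a co-receptor complex, whereas CD22 and the inhibitory Fc receptor encoded by Fcgr2b recruit phosphatases that restrain it. In the GC, BCR signals and antigen capture help decide which B cells receive T cell help. CREBBP acetylates histones and KMT2D methylates histone H3 lysine 4, both mainly at enhancers.

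The libraries held 17483706 to 21857738 fragments in peaks, and levels are given as fragment counts scaled to a common library size with TMM factors (CPM). Single-copy Y chromosome peaks had 1421 to 1742 fragments in 9 of the 17 libraries (2 of 4 WT, 2 of 4 C, 3 of 4 K and 2 of 5 CK) and 0 or 1 fragment in the other 8, although all mice are described as female. None of the 115 peaks was removed for low counts, and the deleted parts of Crebbp and Kmt2d were not examined here. Libraries of both kinds occurred in every genotype, so the differences were also computed within each kind. Signal over all Y peaks (total Y, a covariate below) did not follow this split. It was 277.7 CPM in WT replicate 1 (1474 single-copy fragments), 278.5 in WT replicate 3 (0) and 1008.5 in C replicate 4 (1). Its range was 245.9 to 567.4 CPM in WT, 552.7 to 1008.5 in C, 370.0 to 466.8 in K and 425.5 to 722.6 in CK. It was thus partly confounded with genotype, and a call lost with it cannot be assigned to Y signal alone. Over the 115 peaks, the median log2 difference from the WT mean was 0.07 in WT replicate 4 and -0.03 to -0.02 in the other WT mice. Values are given without WT replicate 4 where leaving it out ended a call or moved the value by over 1.5 times. All 8 GC B cell markers examined had peaks, as did 5 of 8 T cell markers, while Cd3e, Cd3g and Cd8a had none. The summed level of the 8 GC B markers was 1510 to 1718 CPM in WT and 1379 to 1548 in CK. That of 3 follicular B cell markers (Cd38, Fcer2a and Ccr7) was 162.8 to 176.0 CPM in WT, 145.0 to 160.7 in C, 140.1 to 155.0 in K and 141.3 to 151.5 in CK. Of the 3, only Fcer2a separated WT (32.09 to 37.38 CPM) from CK (21.42 to 23.98). Cd38 (98.64 to 109.8 in WT, 92.56 to 99.99 in CK) and Ccr7 (28.85 to 31.4 in WT, 23.57 to 29.39 in CK) overlapped. The summed level of 7 centroblast markers was 456.0 to 489.6 CPM in WT and 437.9 to 469.7 in CK, and that of 7 centrocyte markers 945.2 to 1014 and 954.6 to 1027. By flow cytometry, the study reports a ratio of centroblasts to centrocytes shifted to centroblasts in C and CK mice. Fewer cells of a type and lower accessibility per cell cannot be told apart in bulk libraries, and the part of any of these lists in the results was not tested.

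The sequences of the peaks that changed are shown first, so that the regions behind the values can be seen. Differentially accessible peaks (DAPs) were those whose adjusted p, from the quasi-likelihood F test of edgeR over all 65483 peaks, was below 0.01. There were 4 such peaks among the 115, all lost in CK. The windows below are 300 bases centred on each peak, on the plus strand of GRCm38, at chr7:30887849-30888148 (upstream of Cd22), chr1:170983162-170983461 (upstream of Fcgr2b), chr7:24903433-24903732 (in the peak over the Arhgef1 start, next to Cd79a) and chr8:117639700-117639999 (downstream of Plcg2). The Plcg2 peak is 288 bp long, so its window runs past both of its ends. The peak labelled Cd79a exonic touches the last exon of Cd79a, but the window shown lies wholly past the end of that gene (24902197). Capitals mark matches on either strand, each motif counted on its own, to the PU.1/Ets letters AGGAAGT, the octamer ATGCAAAT, the EBF letters CCCNNGGGA, the STAT letters TTCNNNGAA and the E-box CAGGTG. The files give no summits, so the window need not hold the most accessible bases.
Cd22 upstream peak: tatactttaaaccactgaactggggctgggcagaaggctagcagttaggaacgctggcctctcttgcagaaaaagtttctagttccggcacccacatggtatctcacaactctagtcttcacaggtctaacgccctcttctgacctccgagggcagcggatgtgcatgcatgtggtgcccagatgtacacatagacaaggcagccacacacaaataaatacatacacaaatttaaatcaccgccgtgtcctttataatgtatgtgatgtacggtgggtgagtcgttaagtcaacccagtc
Fcgr2b upstream peak: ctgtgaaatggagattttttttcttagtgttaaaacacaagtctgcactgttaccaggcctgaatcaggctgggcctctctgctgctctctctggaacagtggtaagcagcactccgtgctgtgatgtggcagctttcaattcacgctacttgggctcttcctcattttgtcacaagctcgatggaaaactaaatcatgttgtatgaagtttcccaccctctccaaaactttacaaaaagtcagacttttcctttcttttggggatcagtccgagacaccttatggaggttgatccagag
Cd79a exonic peak: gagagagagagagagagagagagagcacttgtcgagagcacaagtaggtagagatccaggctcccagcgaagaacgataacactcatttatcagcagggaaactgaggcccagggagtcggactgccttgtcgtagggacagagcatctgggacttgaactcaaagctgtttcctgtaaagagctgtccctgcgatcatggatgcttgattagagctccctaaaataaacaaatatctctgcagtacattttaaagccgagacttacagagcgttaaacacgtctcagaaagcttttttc
Plcg2 downstream peak: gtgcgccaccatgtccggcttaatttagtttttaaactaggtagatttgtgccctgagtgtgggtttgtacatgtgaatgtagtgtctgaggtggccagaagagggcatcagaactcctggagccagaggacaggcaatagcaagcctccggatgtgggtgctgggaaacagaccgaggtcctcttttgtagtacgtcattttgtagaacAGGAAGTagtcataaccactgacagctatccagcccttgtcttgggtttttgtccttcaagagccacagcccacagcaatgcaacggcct
The promoters of the same 4 genes follow for comparison, as 250 bases before and 50 after the RefSeq start (GRCm38.p6), 5′ to 3′ on the strand of the gene, because none of their promoter peaks was a DAP. They lie at chr7:30878979-30879278 (Cd22, minus strand), chr1:170976022-170976321 (Fcgr2b, minus strand), chr7:24897247-24897546 (Cd79a, plus strand) and chr8:117498025-117498324 (Plcg2, plus strand). RefSeq promoters were at hand for 7 of the 9 genes, with 2 for Syk.
Cd22 promoter: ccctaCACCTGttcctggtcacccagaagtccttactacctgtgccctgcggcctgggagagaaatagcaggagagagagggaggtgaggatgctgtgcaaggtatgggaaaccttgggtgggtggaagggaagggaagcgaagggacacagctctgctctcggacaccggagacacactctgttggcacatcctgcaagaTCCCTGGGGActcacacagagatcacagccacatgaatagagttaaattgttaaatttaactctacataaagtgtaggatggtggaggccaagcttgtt
Fcgr2b promoter: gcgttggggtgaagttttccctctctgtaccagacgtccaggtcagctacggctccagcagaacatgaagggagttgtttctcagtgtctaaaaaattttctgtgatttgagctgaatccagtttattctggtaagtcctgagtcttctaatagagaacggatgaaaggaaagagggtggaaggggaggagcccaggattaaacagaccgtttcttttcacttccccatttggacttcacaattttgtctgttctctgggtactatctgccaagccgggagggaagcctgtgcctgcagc
Cd79a promoter: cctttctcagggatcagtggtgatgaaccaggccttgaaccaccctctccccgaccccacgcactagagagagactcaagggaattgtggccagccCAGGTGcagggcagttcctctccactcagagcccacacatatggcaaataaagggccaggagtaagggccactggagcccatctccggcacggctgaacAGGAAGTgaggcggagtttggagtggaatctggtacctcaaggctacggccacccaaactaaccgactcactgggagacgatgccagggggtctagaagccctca
Plcg2 promoter: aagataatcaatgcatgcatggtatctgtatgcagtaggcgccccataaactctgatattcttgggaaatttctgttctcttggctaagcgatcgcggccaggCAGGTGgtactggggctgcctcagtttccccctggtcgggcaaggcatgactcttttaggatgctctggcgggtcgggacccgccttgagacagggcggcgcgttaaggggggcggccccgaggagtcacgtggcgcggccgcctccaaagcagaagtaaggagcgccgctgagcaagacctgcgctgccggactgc
Of the called windows only that downstream of Plcg2 held a match, to the PU.1/Ets letters, whereas the Cd22 promoter held EBF and E-box matches and the Cd79a promoter PU.1/Ets and E-box matches. Over the 300-base windows centred on all 115 peaks, the PU.1/Ets letters occurred in 17 (14.8%, against 14.2% of all peaks), the octamer in 3 (2.61% against 4.17%), the EBF letters in 6 (5.22% against 6.4%), the STAT letters in 6 (5.22% against 8.22%) and the E-box in 26 (22.6% against 24.1%). Windows of peaks shorter than 300 bp run past the peak. Of the 8 promoters, 7 held an E-box, 2 the PU.1/Ets letters, 1 the octamer, 1 the EBF letters and 0 the STAT letters, against 20.2%, 9.35%, 1.74%, 6.56% and 8.3% of all 32851 promoters. These are matches of letters and say nothing of binding.

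The comparison of genotypes asks whether loss of 1 allele of Crebbp, of Kmt2d or of both changes accessibility at the genes through which GC B cells sense antigen. In CK, 4 of the 115 peaks were lost and 0 were gained. The 4 were 3.48% of the peaks, close to the 3.3% of all peaks that were lost in CK, so the number of losses did not stand out. For gains, the background was 3.54% of all peaks. With an adjusted p under 0.05, 11 peaks were lost (9.57%, against 7.54% of all peaks) and 0 gained (against 7.85% of all peaks). Counting by an unadjusted p under 0.05 gave 28 peaks (24.3%), all of them lower in CK, where 14.2% of all peaks were lower and 14.7% higher by that count. The DESeq2 test called 4 lost and 0 gained as well, of which 3 were among the 4 called by edgeR, with the intronic Plcg2 peak at 117547931 to 117548750 (adjusted p = 0.00544) in place of the downstream one. No peak was called in C (0 of 115, against 0.16% of all peaks) or in K (0 of 115, against 1.48%). At an unadjusted p under 0.05 these comparisons held 6 peaks (2 of them below 0) and 20 peaks (18 below 0). The share of all peaks at that threshold was not computed for C or K. DESeq2 likewise called 0 in both.

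Small shifts to lower accessibility were common among the peaks in K and CK. The median log2 fold change of the 115 peaks was -0.01 in C, -0.07 in K and -0.12 in CK, while that of all peaks was 0.00 in each. Of the 115 peaks, 77.4% lay below 0 in CK, 69.6% in K and 53.0% in C, beside 49.4%, 49.7% and 50.1% of all peaks. The 3 comparisons share the WT mice, so their values are not independent of each other. As each mouse's median log2 difference from the WT mean, the CK mice gave -0.16, -0.15, -0.11, -0.09 and -0.08, the K mice -0.08, -0.08, -0.07 and -0.03, and the C mice -0.05, -0.03, 0.00 and 0.03. The WT mice gave -0.03, -0.02, -0.03 and 0.07, the last being replicate 4. By this measure the highest CK mouse lay below the lowest WT mouse, and 3 of the 4 K mice did. Without WT replicate 4 the median log2 fold change was -0.07 in CK, -0.05 in K and 0.01 in C.

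**Figure D1:**
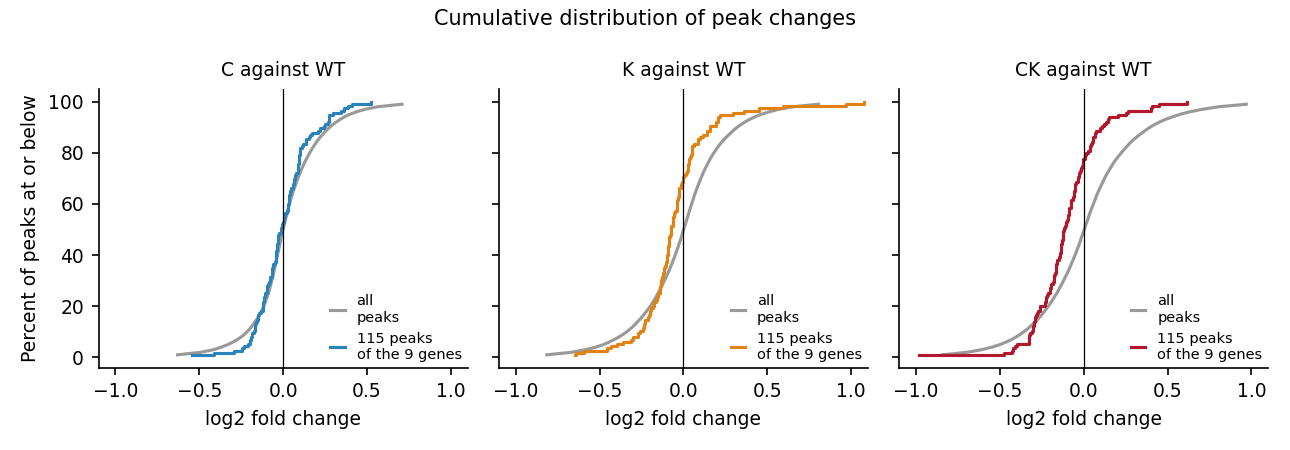
Cumulative distribution of log2 fold changes for the 115 peaks of the 9 genes (coloured) and all peaks (grey, percentiles 1 to 99) in C, K and CK against WT; the x axis is the log2 fold change and the y axis the percent of peaks at or below it. The coloured curve follows the grey in C and crosses 0 at 69.6% in K and 77.4% in CK, where the grey crosses at 49.7% and 49.4%.

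The direction held for promoters as well as for other peaks of these genes. In CK, 8 of the 10 promoter peaks lay below 0 with a median log2 fold change of -0.08, whereas of the 12623 peaks over any coding start 29.3% did, with a median of 0.06. Among those 8, the Fcgr2b and first Syk promoter peaks changed sign under some settings. Of the 105 peaks away from their gene's starts, 77.1% lay below 0 in CK, beside 54.2% of all peaks not over a coding start. Peaks with a WT level of 5 CPM or more were below 0 in 59 of 70 cases, and weaker ones in 30 of 45. The GC content of the 115 peaks (median 47.8%) was close to that of all peaks (48.2%), and they were longer (median 1152 bp against 910 bp). Their WT level was also higher (median 8.5 CPM against 4.34), and the shares of all peaks were not matched for level. Every CK mouse lay below every WT mouse at 14 of the 115 peaks (12.2%, against 6.39% of all peaks), and every CK mouse lay above every WT mouse at 0 (against 6.59%). In K, complete separation held downward at 11 peaks (9.57%, against 5.87%) and upward at 2 (1.74%, against 5.42%). In C it held downward at 5 peaks (4.35%, against 2.77%) and upward at 3 (2.61%, against 2.89%).

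Between the mutant genotypes no peak was called, neither in CK against C (0 of 115, against 1.68% of all peaks) nor in CK against K (0 of 115, against 0.00916%). Counting by an unadjusted p under 0.05 gave 17 peaks (all below 0) and 9 peaks (7 below 0), and DESeq2 called 1 (in Lyn) and 0. For the CK change against the C and K changes added together, edgeR called 0 of 115 (against 0.0107% of all peaks). There, 5 had an unadjusted p under 0.05, all below 0. Shares of all peaks at that threshold were not computed for these comparisons.

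**Figure D2:**
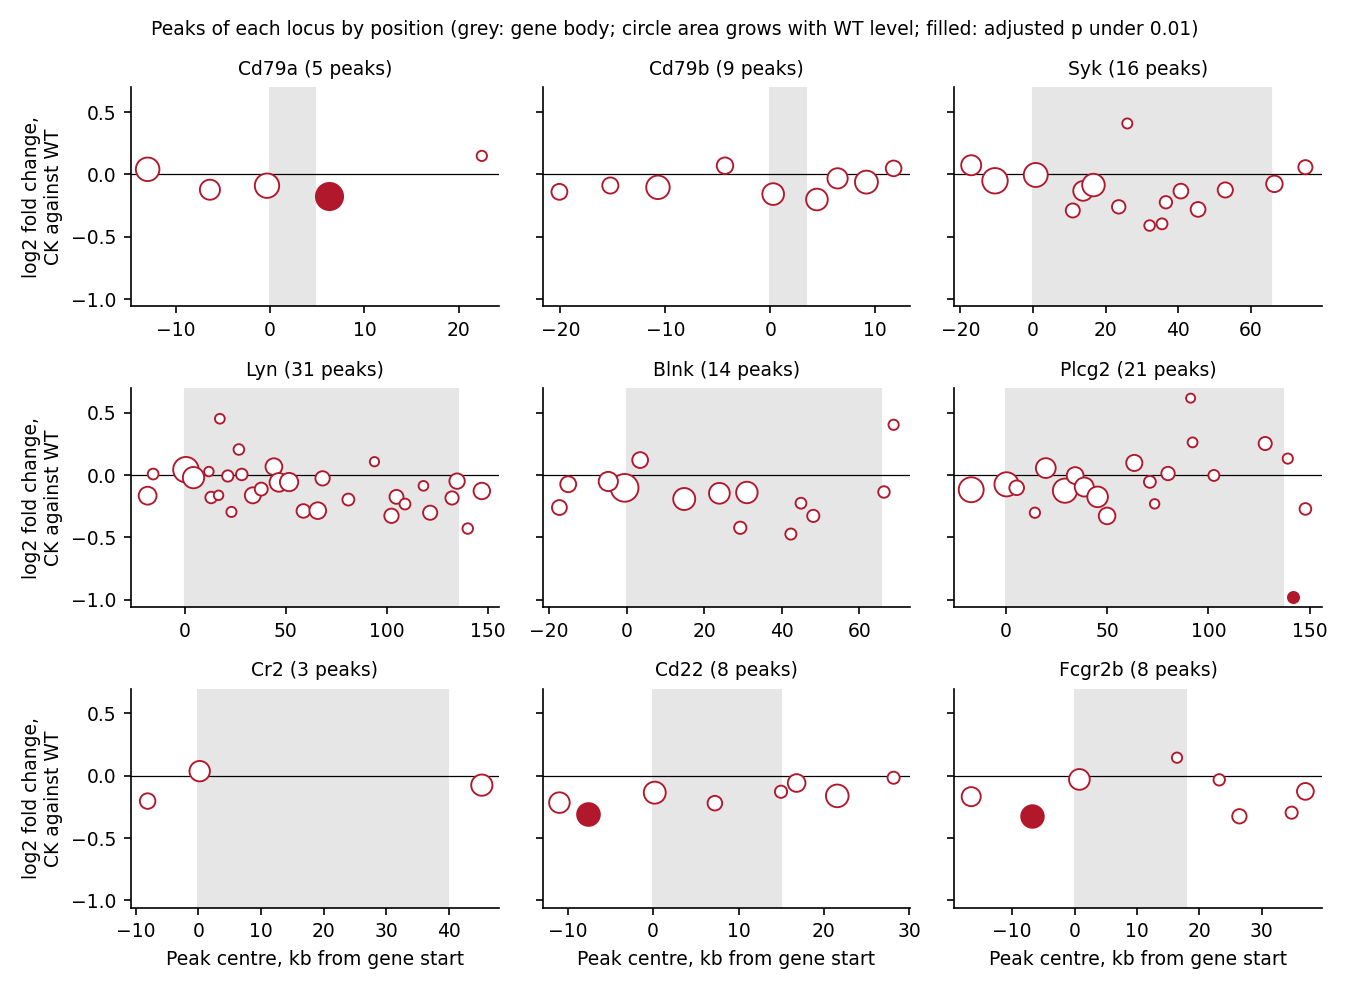
Log2 fold change in CK against WT of the 115 peaks (y axis) by the distance of the peak centre from the gene start in kb, along the gene's strand (x axis), 1 panel per gene. Grey marks the gene body, circle area grows with the WT level, and filled circles are the 4 DAPs, which lie upstream of Cd22 and Fcgr2b and beyond the ends of Cd79a and Plcg2.

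Peaks upstream of both inhibitory receptors were lost in CK. Cd22 (ENSMUSG00000030577.14, chromosome 7, 30865402 to 30880342, minus strand) encodes a sialic acid-binding receptor that recruits the phosphatase SHP-1 to the BCR. Its peak at 30886993 to 30889003, centred 7.66 kb before the gene start, measured 52.6, 51.1, 56.6 and 64.9 CPM in the WT mice and 46.7, 43.6, 46.0, 45.9 and 45.0 CPM in the CK mice. The C mice had 49.3, 49.7, 50.1 and 52.3 CPM, and the K mice 45.3, 50.7, 48.7 and 51.7 CPM. Every CK mouse was below every WT mouse, whereas C and K each overlapped WT. The log2 fold change was -0.31 ± 0.06 (SE) in CK with an adjusted p of 0.000642, beside -0.16 ± 0.06 in C (adjusted p = 0.367) and -0.20 ± 0.06 in K (adjusted p = 0.0509). CK against K differed by -0.11 ± 0.06 (adjusted p = 0.706). The log2 difference between CK and WT was -0.16 in libraries with Y signal and -0.44 in those without. Those without were 3 CK and 2 WT mice, among them WT replicate 4 with 64.9 CPM. Without WT replicate 4 the log2 fold change was -0.24 and the adjusted p 0.00479, and with total Y peak signal as a covariate they were -0.24 and 0.0643.

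The Cd22 promoter peak (30878500 to 30881806) measured 50.1 ± 4.88 CPM in WT (SD, n = 4), 47.95 ± 2.78 in C (n = 4), 47.2 ± 1.18 in K (n = 4) and 45.6 ± 1.51 in CK (n = 5). Its log2 fold change of -0.14 ± 0.06 in CK did not pass the test (adjusted p = 0.1). A further upstream peak at 30890445 to 30892202 measured 37.3 ± 3.88 CPM in WT (SD, n = 4) and 32.1 ± 2.1 in CK (SD, n = 5), with an adjusted p of 0.0337. All 8 Cd22 peaks were below 0 in CK. Ffar1, Ffar3 and Mag also lie in this window, so a peak in it need not act on Cd22.

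Fcgr2b (ENSMUSG00000026656.15, chromosome 1, 170958617 to 170976547, minus strand) encodes the inhibitory receptor for IgG immune complexes, which acts through the phosphatase SHIP1. Its upstream peak at 170981287 to 170985335, centred 6.76 kb before the gene start, measured 53.3, 51.8, 51.6 and 59.8 CPM in WT and 42.2, 44.1, 44.0, 40.0 and 46.4 CPM in CK. The C mice had 45.3, 48.6, 54.3 and 54.0 CPM, and the K mice 38.95, 42.5, 43.7 and 54.1 CPM. The highest CK mouse lay below the lowest WT mouse, and 3 of the 4 K mice did, the exception being replicate 4. The log2 fold change was -0.32 ± 0.07 in CK (adjusted p = 0.00435), -0.27 ± 0.08 in K (adjusted p = 0.0424) and -0.10 ± 0.08 in C (adjusted p = 0.766). It was -0.35 in libraries with Y signal and -0.31 in those without. The call did not pass without WT replicate 4 (adjusted p = 0.03), CK replicate 1 (adjusted p = 0.0119) or CK replicate 4 (adjusted p = 0.0144), nor with the total Y covariate (-0.29, adjusted p = 0.0931).

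The promoter of Fcgr2b did not follow its upstream peak. At 170974901 to 170976638 it measured 38.5 ± 2.23 CPM in WT (SD, n = 4), 39.5 ± 1.2 in C (n = 4), 39.6 ± 2.16 in K (n = 4) and 37.7 ± 1.59 in CK (n = 5), with a log2 fold change of -0.03 ± 0.05 in CK (adjusted p = 0.763). That value changed sign under some settings given below. No other coding gene lies in the Fcgr2b window.

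**Figure D3:**
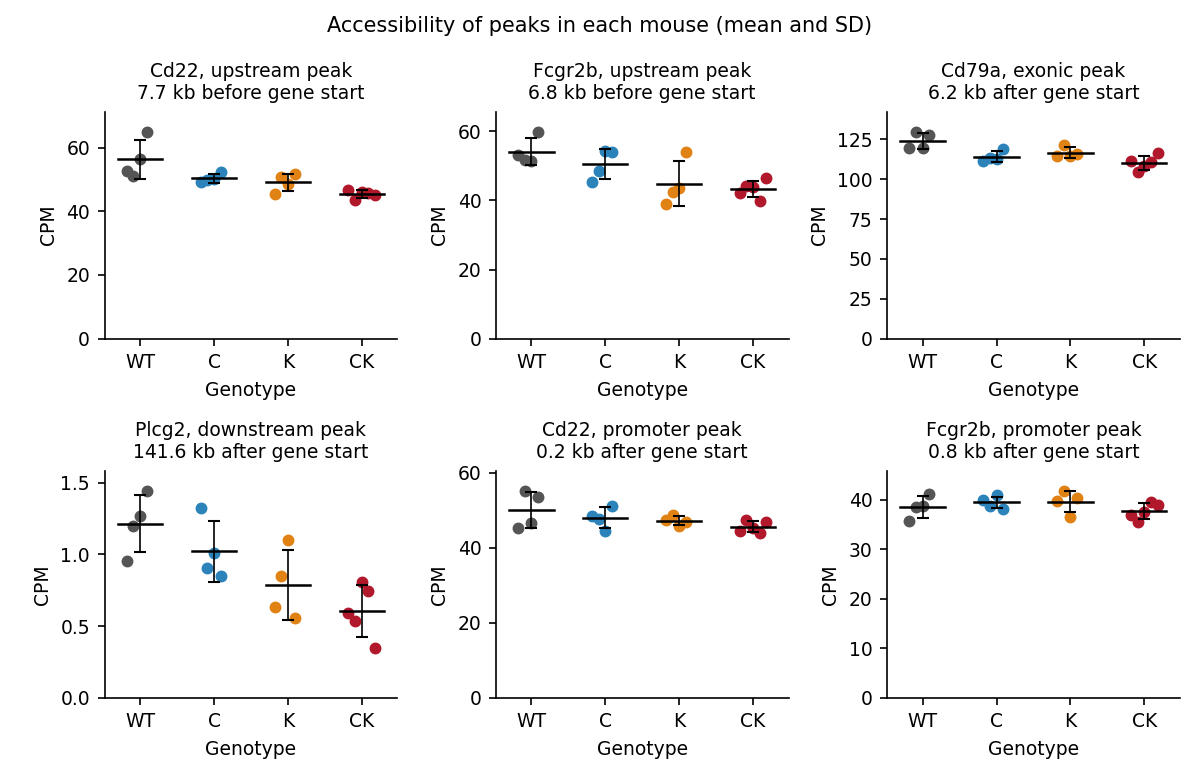
Level in CPM (y axis) of the 4 DAPs and of the Cd22 and Fcgr2b promoter peaks in every mouse by genotype (x axis), with the mean and SD. The CK mice lie below all WT mice at the 4 DAPs (45.4 against 56.3 CPM on average upstream of Cd22, 43.3 against 54.1 upstream of Fcgr2b) and overlap them at both promoters.

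Summed over each gene's window, the same receptors passed the test. A locus was the sum of counts over a gene's peaks, tested over 17133 coding genes. The sums of Cd22 and Fcgr2b hold their upstream DAPs, so the locus calls are not separate from the peak calls. In CK, 2 of the 9 loci were lost (Cd22 and Fcgr2b, where 3.26% of all loci were lost) and 0 gained (where 8.56% were), and no other tool was run on loci. At an unadjusted p under 0.05, 6 loci were lower in CK and 0 were higher. Shares of all loci at that threshold were not computed for any genotype. The Cd22 locus had 209.8, 230.4, 228.3 and 258.0 CPM in WT and 198.2, 195.6, 203.8, 204.8 and 212.8 CPM in CK, so that CK replicate 5 overlapped WT replicate 1. Its log2 fold change was -0.05 ± 0.04 in C, -0.11 ± 0.04 in K and -0.19 ± 0.04 in CK (adjusted p = 0.00255). The Fcgr2b locus had 141.2, 140.3, 139.6 and 156.5 CPM in WT and 126.6, 128.8, 123.4, 123.8 and 133.0 CPM in CK, without overlap. Its log2 fold change was -0.04 ± 0.04 in C, -0.14 ± 0.04 in K (adjusted p = 0.0349) and -0.18 ± 0.04 in CK (adjusted p = 0.002).

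Both locus calls were lost without WT replicate 4, where the log2 fold changes were -0.13 for Cd22 (adjusted p = 0.0183) and -0.14 for Fcgr2b (adjusted p = 0.0159). They were also lost with gene bodies alone, at -0.14 for Cd22 (adjusted p = 0.0423) and -0.03 for Fcgr2b (adjusted p = 0.761), a setting under which the Cd79a and Blnk loci passed. The Cd79a sum there holds the peak over the Arhgef1 start. With the peaks near transcript starts left out, Cd22 and Fcgr2b both passed, with log2 fold changes of -0.26 and -0.24. With the total Y covariate they were -0.18 and -0.15 (adjusted p = 0.0471 and 0.0711), and the adjusted p with single-copy Y signal, added after seeing the data, was 0.000531 and 0.000813. No locus was called in C (0 of 9, against 0.333% of all loci; 1 at an unadjusted p under 0.05) or in K (0 of 9, against 2.95%; 4 at an unadjusted p under 0.05).

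**Figure D4:**
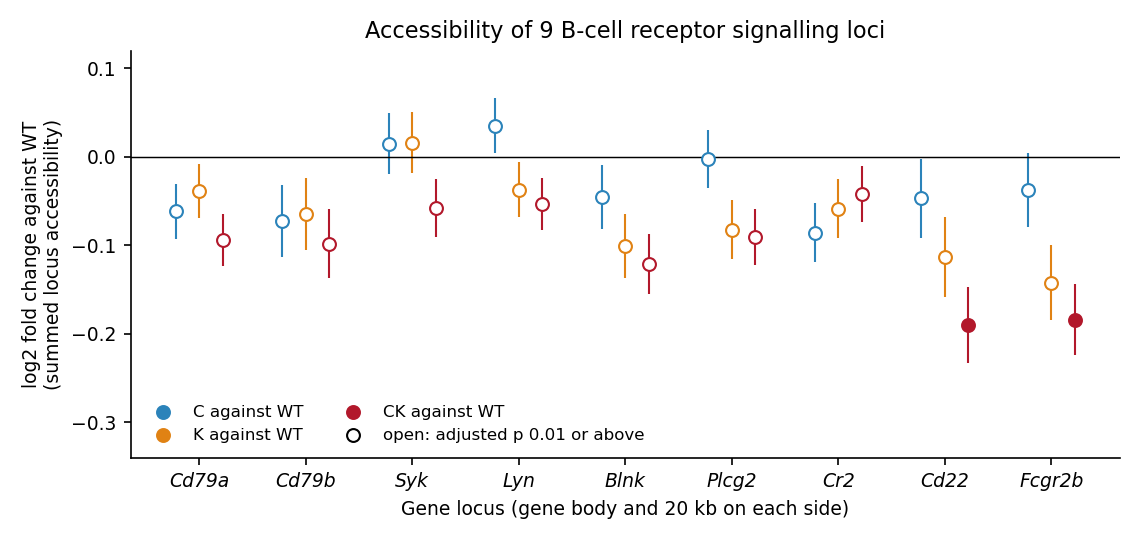
Log2 fold change against WT (y axis, with SE) of accessibility summed over each of the 9 loci (x axis) in C, K and CK. Filled points passed an adjusted p of 0.01, which only CK at Cd22 (-0.19) and Fcgr2b (-0.18) did. The CK point lies below 0 at all 9 loci, where 6253 of all 17133 loci did, though that of Cr2 turned to 0.01 with GC content bins and 0.04 with the gene body alone.

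Neither signalling chain of the receptor had a called promoter peak. Cd79a (ENSMUSG00000003379.7, chromosome 7, 24897381 to 24902197, plus strand) encodes Ig-alpha. Its promoter peak (24896114 to 24898006) had 76.9, 79.7, 77.1 and 84.9 CPM in WT and 76.5, 72.9, 74.6, 74.5 and 75.5 CPM in CK. These did not overlap, yet the log2 fold change of -0.09 ± 0.04 did not pass (adjusted p = 0.169) and was -0.06 without WT replicate 4. The DAP in this window, at 24901970 to 24905194, touches the last exon of Cd79a but spans the start of Arhgef1, which encodes a guanine nucleotide exchange factor, so it cannot be assigned to Cd79a. It measured 119.3, 129.5, 119.6 and 127.5 CPM in WT and 111.3, 104.5, 108.2, 110.6 and 116.5 CPM in CK, with a log2 fold change of -0.17 ± 0.04 (adjusted p = 0.00494). All C mice (111.3, 113.5, 112.9 and 119.0 CPM) were below all WT mice as well, though the difference of -0.12 ± 0.04 did not pass (adjusted p = 0.336). The CK difference was -0.17 in libraries with Y signal and -0.17 without. The call was lost on leaving out WT replicate 2 (adjusted p = 0.0236) or 4 (0.025), or CK replicate 2 (0.0157), 3 (0.0115) or 4 (0.0107), and with the total Y covariate (0.0488).

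Cd79b (ENSMUSG00000040592.11, chromosome 11, 106311341 to 106314762, minus strand) encodes Ig-beta, and Gh and Scn4a share its window. Its promoter peak (106313638 to 106315348) measured 47.1 ± 6.28 CPM in WT (SD, n = 4), 44.4 ± 3.44 in C (n = 4), 44.2 ± 3.83 in K (n = 4) and 42.2 ± 4.28 in CK (n = 5), and these ranges overlapped. Its log2 fold change in CK, -0.16 ± 0.08 (adjusted p = 0.185), was the lowest of the 10 promoter peaks, and it was -0.06 without WT replicate 4. The Cd79b peak of lowest p, at 106309881 to 106310772 beyond the gene's end, measured 47.2 ± 4.8 CPM in WT and 41.0 ± 2.26 in CK, with a log2 fold change of -0.20 ± 0.06 (adjusted p = 0.0299), or -0.13 without WT replicate 4 (adjusted p = 0.19). The locus log2 fold change in CK was -0.10 ± 0.04 for Cd79b (adjusted p = 0.071), and -0.06 without WT replicate 4. That of Cd79a was -0.09 ± 0.03 (adjusted p = 0.0226). The Cd79a locus passed with total fragments (adjusted p = 0.00701), loess offsets (0.00408), GC content bins (-0.13, adjusted p = 0.00056), the gene body alone (-0.14, adjusted p = 0.00506) and 50 kb windows (0.00634). Each of these sums, that of the gene body included, holds the DAP over the Arhgef1 start. That peak averaged 124.0 CPM in WT and 110.2 in CK, beside 306.3 and 287.0 for the main locus sum. The passes therefore cannot be assigned to Cd79a alone.

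No peak of the kinase genes passed an adjusted p of 0.01 in the main edgeR test. Lyn (ENSMUSG00000042228.14, chromosome 4, 3678115 to 3813122, plus strand) encodes the Src-family kinase that starts the cascade and also feeds its inhibitory arm. Its promoter peak (3677663 to 3679774) measured 96.1 ± 5.16 CPM in WT (SD, n = 4), 96.6 ± 1.9 in C (n = 4), 99.0 ± 3.37 in K (n = 4) and 99.0 ± 5.16 in CK (n = 5), with a log2 fold change of 0.04 ± 0.04 in CK (adjusted p = 0.563), or 0.08 without WT replicate 4. Of its 31 peaks, 23 lay below 0 in CK, and the range was -0.43 to 0.45. The Lyn peak of lowest p, at 3743052 to 3744727 inside the gene, had 12.6, 13.4, 13.9 and 15.6 CPM in WT, while the C mice had 14.7, 14.8, 15.3 and 14.2 CPM. The K mice had 9.98, 11.4, 10.9 and 12.55 CPM and the CK mice 9.99, 11.5, 11.9, 10.96 and 12.62 CPM, where the lowest WT mouse had 12.56. Every K mouse was below every WT mouse, CK overlapped WT, and C was not lower, with log2 fold changes of -0.30 ± 0.09 in K (adjusted p = 0.0523), -0.29 ± 0.09 in CK (adjusted p = 0.0268) and 0.09 ± 0.09 in C (adjusted p = 0.832). CK against C gave -0.37 ± 0.09 there (adjusted p = 0.0109), and DESeq2 called that difference (-0.38, adjusted p = 0.00125). In CK against WT this Lyn peak passed with the replicate block (-0.32, adjusted p = 0.00778). Without WT replicate 4 it was -0.23 (adjusted p = 0.128).

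Syk (ENSMUSG00000021457.14, chromosome 13, 52583173 to 52648792, plus strand) encodes the kinase that binds the phosphorylated chains. Its first promoter peak (52582464 to 52585402) measured 73.8 ± 2.04 CPM in WT (SD, n = 4) and 73.5 ± 2.73 in CK (SD, n = 5), a log2 fold change of -0.01 ± 0.04 (adjusted p = 0.959). The peak over a later start (52596417 to 52597570) measured 30.5 ± 1.48 CPM in WT and 27.8 ± 1.83 in CK (adjusted p = 0.133). An intronic peak at 52628215 to 52629150 measured 7.48 ± 0.626 CPM in WT and 6.15 ± 0.481 in CK, the lowest p among the Syk peaks (adjusted p = 0.0833). In CK 13 of the 16 Syk peaks lay below 0, against 7 in C and 8 in K. The locus log2 fold changes in CK were -0.06 ± 0.03 for Syk (adjusted p = 0.214) and -0.05 ± 0.03 for Lyn (adjusted p = 0.194), the latter -0.03 without WT replicate 4.

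Blnk (ENSMUSG00000061132.13, chromosome 19, 40928927 to 40994535, minus strand) encodes the adaptor that SYK phosphorylates. Its promoter peak (40993536 to 40996556) measured 139.3 ± 3.69 CPM in WT (SD, n = 4), 135.4 ± 6.27 in C (n = 4), 131.9 ± 2.05 in K (n = 4) and 129.8 ± 7.53 in CK (n = 5), with a log2 fold change of -0.10 ± 0.04 in CK (adjusted p = 0.101). An intronic peak at 40977256 to 40982120 had 48.2, 48.5, 48.3 and 56.4 CPM in WT, 45.1, 43.3, 45.1 and 43.6 in K, and 42.5, 46.0, 42.9, 41.6 and 47.3 in CK. Every K and CK mouse was below every WT mouse there, with log2 fold changes of -0.18 ± 0.06 in K (adjusted p = 0.0574) and -0.19 ± 0.05 in CK (adjusted p = 0.0169). Without WT replicate 4, the high WT mouse, the CK value was -0.13 (adjusted p = 0.114). The Blnk locus had 328.1 to 356.7 CPM in WT and 300.8 to 326.6 in CK, and its log2 fold change of -0.12 ± 0.03 missed the threshold (adjusted p = 0.0127), as did the -0.10 ± 0.04 in K (adjusted p = 0.0743). It passed with gene bodies alone (adjusted p = 0.0093) and with total fragments as the scale (adjusted p = 0.00765), while without WT replicate 4 the adjusted p was 0.0706.

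Plcg2 (ENSMUSG00000034330.10, chromosome 8, 117498291 to 117635142, plus strand) encodes the phospholipase that generates inositol trisphosphate and diacylglycerol. Its promoter peak (117497979 to 117499493) measured 76.3 ± 1.94 CPM in WT (SD, n = 4) and 72.5 ± 4.09 in CK (SD, n = 5), a log2 fold change of -0.07 ± 0.04 (adjusted p = 0.272) that became -0.17 and passed with GC content bins (adjusted p = 0.00824). The DAP of this window, at 117639706 to 117639993 and 4.71 kb past the gene end, was weak, with 0.958, 1.201, 1.265 and 1.44 CPM in WT and 0.591, 0.538, 0.805, 0.747 and 0.346 CPM in CK, or 6 to 28 fragments in any library. Its log2 fold change was -0.98 ± 0.25 (adjusted p = 0.00976), and DESeq2 did not call it (adjusted p = 0.0152). The call was also lost without WT replicate 2, 3 or 4, C replicate 2, 3 or 4, K replicate 1 or 2, or CK replicate 1, 2, 4 or 5, with an adjusted p of 0.0438 without WT replicate 4. An intronic peak at 117547931 to 117548750 averaged 13.6 ± 0.233 CPM in the WT mice, 12.1 ± 1.3 in the C mice, 11.3 ± 0.81 in the K mice and 10.8 ± 1.07 in the CK mice (SD), and every C, K and CK mouse was below every WT mouse (adjusted p = 0.62, 0.0925 and 0.014). The Plcg2 locus had 388.0 to 420.7 CPM in WT and 364.8 to 384.1 in CK, without overlap, and its log2 fold change was -0.09 ± 0.03 (adjusted p = 0.04).

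Cr2 (ENSMUSG00000026616.15, chromosome 1, 195136811 to 195176716, minus strand), the complement receptor of the co-receptor complex, had 3 peaks and shares its window with Cr1l. Its promoter peak (195175967 to 195177084) measured 35.9 ± 1.78 CPM in WT (SD, n = 4), 34.8 ± 1.2 in C (n = 4), 36.8 ± 2.25 in K (n = 4) and 36.8 ± 0.846 in CK (n = 5). An upstream peak at 195184162 to 195185533 measured 9.66 ± 0.417 CPM in WT and 8.39 ± 0.731 in CK (adjusted p = 0.188). Cr2 was the locus with the smallest shift in CK, -0.04 ± 0.03 (adjusted p = 0.362), and that shift turned to 0.01 with GC content bins and to 0.04 with the gene body alone, and was -0.02 without WT replicate 4. In C every mouse (81.2 to 85.1 CPM) was below every WT mouse (85.9 to 92.25 CPM), yet the log2 fold change of -0.09 ± 0.03 did not pass (adjusted p = 0.342).

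Per kb of peak, the level of the loci in WT ran from 9.33 CPM per kb at Lyn and 12.2 at Fcgr2b, through 14.9 at Blnk, 15.5 at Plcg2, 16.01 at Syk, 16.3 at Cd22 and 21.4 at Cr2, to 29.9 at Cd79b and 31.1 at Cd79a. These densities cover whole windows: of the 306 CPM of the Cd79a window in WT, 124 came from the peak over the Arhgef1 start and 68.6 from a peak over the Rps19 start. Peaks called in C were rare near all of the genes, with 1 of 461 peaks within 5 Mb of Blnk and 0 near the other 8.

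Among 38 other genes of the pathway, 5 loci were lost and 1 gained in CK, where all loci gave 3.26% lost and 8.56% gained. The median locus log2 fold change was -0.05 for these 38 genes and 0.03 for all loci. Of the 38, 31 lay below 0, beside 6253 of all 17133 loci. In K 1 of the 38 was lost (Vav1, adjusted p = 0.00795) and in C 0 were called, with 4 at an unadjusted p under 0.05. Of 13 kinases and adaptors, 11 lay below 0 and 1 was lost, Vav1, a guanine nucleotide exchange factor. The Vav1 locus fell from 278.0 ± 7.91 CPM in WT (SD, n = 4) to 254.9 ± 3.19 in K (SD, n = 4) and 251.4 ± 5.28 in CK (SD, n = 5), a log2 fold change of -0.14 ± 0.03 in CK (adjusted p = 0.000502, or 0.0142 with the total Y covariate).

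Of 11 genes of second messengers and later steps, 2 were lost and 1 gained. Nfatc2, a calcium-responsive transcription factor, went from 189.0 ± 4.3 CPM in WT (SD, n = 4) to 170.8 ± 3.08 in CK (SD, n = 5), a log2 fold change of -0.15 ± 0.03 (adjusted p = 0.00072, or 0.026 with the total Y covariate). Rasgrp3, which activates RAS downstream of diacylglycerol, had 395.7 to 460.9 CPM in WT and 351.6 to 378.3 in CK (log2 fold change -0.18 ± 0.05, adjusted p = 0.00731), and did not pass without WT replicate 3 (adjusted p = 0.0143) or 4 (0.053), or without CK replicate 1, 2, 3 or 4. Foxo1, the transcription factor that AKT keeps out of the nucleus and that marks dark zone cells, was the gained locus, with 186.0 to 196.3 CPM in WT and 200.1 to 211.9 in CK (log2 fold change 0.12 ± 0.03, adjusted p = 0.00273). The C and K values were 0.10 ± 0.03 and 0.09 ± 0.03 (adjusted p = 0.128 and 0.047). The CK call was lost without WT replicate 3 (adjusted p = 0.0139) or 4 (0.0128), and the value became -0.01 when the window was widened to 50 kb.

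Of 12 inhibitors, 11 lay below 0 in CK and 2 were lost. Cd5, a dampener of antigen receptor signals found on T cells and some B cells, had 39.6 to 44.2 CPM in WT and 29.2 to 37.5 in CK (log2 fold change -0.35 ± 0.07, adjusted p = 0.00113), beside -0.28 ± 0.08 in C and -0.29 ± 0.08 in K. With peaks near transcript starts left out it was -0.07 (adjusted p = 0.641). The summed T cell markers were 271.9 to 289.1 CPM in WT and 241.3 to 269.1 in CK, and their part in the Cd5 value was not tested. Among them only Cd2 separated, with 112.5 to 138.4 CPM in WT and 93.24 to 106.3 in CK. Lck and Thy1 overlapped, as did Cd3d (26.41 to 30.03 in WT, 21.89 to 32.64 in CK) and Cd4 (6.091 to 7.982 in WT, 7.029 to 9.324 in CK). Csk, the kinase that holds Src-family kinases inactive, gave -0.16 ± 0.04 (adjusted p = 0.00984), and -0.10 without WT replicate 4 (adjusted p = 0.0706). The Csk call was also lost without any one of WT replicates 2 and 3, C replicates 1 to 3, K replicates 3 and 4 and CK replicates 1 to 4. Of the co-receptor genes, Cd81 and Ptprc were not called by edgeR, with locus log2 fold changes in CK of -0.02 and -0.11 (adjusted p = 0.613 and 0.0598).

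**Figure D5:**
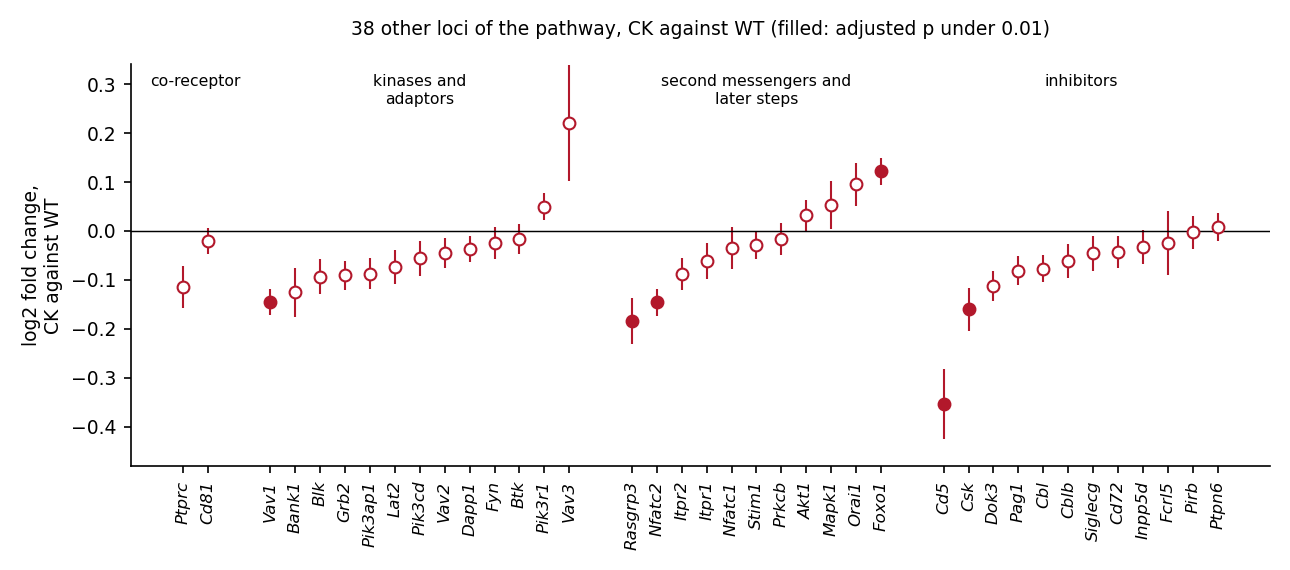
Log2 fold change in CK against WT (y axis, with SE) of 38 other pathway loci, grouped by role (x axis). Filled points passed an adjusted p of 0.01: Vav1, Rasgrp3, Nfatc2, Cd5 and Csk below 0 and Foxo1 above, the last turning to -0.01 with 50 kb windows.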

How the data were processed

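ATAC-seq libraries of sorted GC B cells from 17 mice were analysed, with 1 library per mouse, so that p-values measure the spread between mice. The deposited table holds raw counts of fragments per consensus peak, which the authors made on mm10 with featureCounts inside an nf-core pipeline, where a fragment needed to cover only part of a peak and could count for more than 1. Libraries of centroblasts and centrocytes were not analysed here. No column of the table was left out, and 0 peaks had fewer than 10 fragments in all.

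Counts were fitted in R 4.3.3 with edgeR 4.0.16 (TMM factors, quasi-likelihood F test, 1 coefficient per genotype, all 17 libraries) over 65483 peaks, with Benjamini-Hochberg adjustment and an adjusted p of 0.01 for a call. Peaks were assigned through GENCODE gene bodies and 20 kb on each side. Locus counts were summed and fitted likewise for 17133 coding genes. The procedures were tested on simulated data. DESeq2 1.42.0, limma 3.58.1 (loess offsets), other scalings, windows and left-out mice served as alternatives. The text names the members, their called and promoter peaks, the peak of lowest p in CK where a gene had none called, and called loci of the pathway list. The second upstream Cd22 peak, the intronic Plcg2 peak and the Cd81 and Ptprc loci were named after their values were seen. The members and all gene lists were chosen with earlier results of these data known. Some genes of the marker and pathway lists are not reported here, and list totals leave them out. Depth was 17483706 to 21857738 fragments in peaks, and the median peak had 74 to 97 fragments. Sequences came from the GRCm38 reference and RefSeq.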

Additional observations from a re-analysis of the deposited data

Results flagged for a closer look

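Within groups of 4 or 5 mice, a library was set apart where its gap to the nearest of the others took up most of the group's range (Dixon's 95% criterion), which chance gives in about 1 group in 20. Of 112 groups examined, 4 met it. The Fcgr2b locus had 156.5 CPM in WT replicate 4 and 139.6 to 141.2 CPM in the other WT mice, and the intronic Blnk peak at 40977256 to 40982120 had 56.37 CPM in WT replicate 4 and 48.21 to 48.51 in the others. The Cd79b locus had 299.8 CPM in C replicate 4 and 283.5 to 284.3 in the other C mice, and the Cd79b peak at 106309881 to 106310772 had 47.84 CPM in C replicate 4 and 42.14 to 42.76 in the others.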

How the results depend on the processing

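The 4 peaks called in CK became 11 at an adjusted p of 0.05, 1 with a fold change over 1.5 required, 9 with a replicate block, 0 with total Y signal as a covariate, 2 with only the genotypes compared, 1 with gene bodies alone, 8 with 50 kb windows and 1 to 5 without 1 mouse. The 0 peaks in K became 3 at an adjusted p of 0.05, 1 with the replicate block, 1 with 50 kb windows and 0 to 1 without 1 mouse. The 0 peaks in CK against C became 1 with DESeq2, 4 at an adjusted p of 0.05, 3 with the replicate block, 1 with single-copy Y signal as a covariate (added after seeing the data) and 0 to 1 without 1 mouse. The 2 loci called in CK became 4 with total fragments, 4 with loess offsets, 5 at an adjusted p of 0.05, 6 with the replicate block, 0 with the total Y covariate and 0 to 3 without 1 mouse. With gene bodies alone 2 passed, but Cd79a and Blnk in place of Cd22 and Fcgr2b, and with GC bins or 50 kb windows Cd79a passed beside Cd22 and Fcgr2b. Each of these Cd79a sums holds the peak over the Arhgef1 start. The 0 loci in K became 1 at an adjusted p of 0.05 and 1 with the replicate block. The 6 pathway loci in CK became 10 with GC content bins, 11 at an adjusted p of 0.05, 12 with the replicate block, 0 with the total Y covariate, 3 with 50 kb windows, 3 without peaks near starts and 3 to 7 without 1 mouse. The median log2 fold change in CK was -0.07912 with 50 kb windows and -0.1229 to -0.06893 without 1 mouse, that in K -0.09 to -0.05 and that in C -0.04 to 0.01. Signs turned for the Cr2 locus (0.00698 with GC bins, 0.03723 with the gene body alone), the Foxo1 locus (-0.01116 with 50 kb), the Syk promoter peak at 52582464 (0.0032 with total fragments, 0.01181 with GC bins, 0.003228 with the replicate block, and -0.02526 to 0.01231 without 1 mouse, above 0 without WT replicate 1, CK replicate 3 or CK replicate 5) and the Fcgr2b promoter peak (0.0008318 with GC bins, 0.01635 with the total Y covariate and -0.06355 to 0.003143 without 1 mouse, above 0 without WT replicate 4). The cause was not tested. Replicate numbers were not taken to pair the mice, since 6 of 24 same-number pairs, not all, had deviations correlated at r over 0.1, although their median r was 0.0606 against -0.0219 for other numbers, and 7 of 16 libraries lay closest to their own number. With the block the Cd79b promoter peak passed (-0.2117, adjusted p = 0.00466). DESeq2 was not run on loci. The called Plcg2 peak rests on 6 to 28 fragments a library.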
